A study of Mus musculus with 2 samples.

Results

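*Sulf1*, *Col3a1*, *Col5a2*, *Fn1*, *Igfbp2* and *Igfbp5* are 6 fibroblast matrix genes of proximal chromosome 1, and their chromatin contacts were compared between wild-type and *Lin28a* knockout mouse embryonic stem (ES) cells. They were chosen by name, as genes with strong expression in fibroblasts and mostly low expression in ES cells, and make up 6 of the 509 coding genes on the part of chromosome 1 that was analysed, from 3 to 90.75 Mb. The data are Hi-C libraries, in which DNA ends that lay close together in cross-linked nuclei are ligated and sequenced as pairs. Per the labels, both groups were ES cells grown for 2 days on 0.1% gelatin with mouse embryonic fibroblast (MEF) feeder cells in LIF/2i medium and fixed with 1% formaldehyde for 10 min. The groups differ, as labelled, in *Lin28a*, the gene of an RNA-binding protein of early embryos and stem cells, which was intact in 1 library and knocked out in the other. The labels do not say which ES line, clone or knockout allele was used. The study describes single knockout clones made with CRISPR/CAS9, besides ES cells derived from knockout mice.

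Fibroblasts build the extracellular matrix. Fibrillar collagens give it tensile strength, fibronectin links it to integrins on the cell surface, heparan sulfate in it holds growth factors, and insulin-like growth factor binding proteins are secreted into it and control access of the growth factors to their receptors. MEF feeders are fibroblasts and are usually growth-arrested, so that they support ES cells without dividing. In mammalian nuclei, chromatin is divided into an A compartment, which is rich in genes and mostly active, and a B compartment, which is poor in genes and mostly silent, and each contacts mainly its own kind. A gene silent in one cell type and active in another often lies nearer to A where it is active. The libraries hold no RNA, so neither the low expression of these genes in ES cells nor the labelled cell type could be checked against markers. The comparison asked whether these genes leaned to A more in one of the libraries. A bulk library joins the contacts of all fixed nuclei, so a different share of feeder nuclei and a difference within ES nuclei cannot be told apart.

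The 6 genes lie at 4 separate loci (GRCm38, GENCODE release M21). *Sulf1*, which encodes an enzyme that removes sulfate groups from heparan sulfate, is at 12692277 to 12861192 on the plus strand. *Col3a1*, the gene of the α chain of type III collagen, is at 45311538 to 45349706 on the plus strand. *Col5a2*, the gene of a chain of type V collagen, follows at 45374321 to 45503282 on the minus strand, so both collagen genes end toward each other. *Fn1*, the gene of fibronectin, is at 71585520 to 71653200 on the minus strand. *Igfbp2* is at 72824503 to 72852474 on the plus strand and *Igfbp5* at 72857932 to 72874884 on the minus strand, again tail to tail. All values below are for the 500 kb window centred on each gene. The windows of the collagen genes overlap, as do those of both *Igfbp* genes, so these pairs share most of their contacts and count as 1 locus each.

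The windows hold few other coding genes at the collagen locus and several at the *Igfbp* locus. No other coding gene starts in the windows of *Col3a1* and *Col5a2*. The *Sulf1* window also holds *Slco5a1*, that of *Fn1* holds *Abca12* and *Atic*, and those of *Igfbp2* and *Igfbp5* hold *Ankar*, *Rpl37a* and *Tnp1*. *Atic*, a gene of purine synthesis, and *Rpl37a*, a ribosomal protein gene, are used by all dividing cells. The GC content was 37.7% in both collagen windows, 41.6% around *Fn1*, 42.2% around *Sulf1*, 44.4% around *Igfbp5* and 44.7% around *Igfbp2*.

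Promoter sequences from RefSeq (GRCm38.p6, 250 bases before to 50 after the annotated start) were matched for 3 of the 6 genes. They are shown because the loci that stood at the low and the high end of the compartment values below also differ in the CpG content of these promoters. *Col5a2*, *Fn1* and *Sulf1* had no matched promoter, and a relation between CpG content and compartment value was not tested. Capitals mark CpG dinucleotides.
*Col3a1*, chr1:45311288-45311587, plus strand: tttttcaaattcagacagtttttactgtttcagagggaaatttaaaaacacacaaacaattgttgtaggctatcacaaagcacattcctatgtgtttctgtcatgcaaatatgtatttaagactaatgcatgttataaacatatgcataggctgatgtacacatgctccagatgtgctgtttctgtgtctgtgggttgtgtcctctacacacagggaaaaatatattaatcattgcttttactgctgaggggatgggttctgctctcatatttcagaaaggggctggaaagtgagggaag
*Igfbp2*, chr1:72824230-72824529, plus strand: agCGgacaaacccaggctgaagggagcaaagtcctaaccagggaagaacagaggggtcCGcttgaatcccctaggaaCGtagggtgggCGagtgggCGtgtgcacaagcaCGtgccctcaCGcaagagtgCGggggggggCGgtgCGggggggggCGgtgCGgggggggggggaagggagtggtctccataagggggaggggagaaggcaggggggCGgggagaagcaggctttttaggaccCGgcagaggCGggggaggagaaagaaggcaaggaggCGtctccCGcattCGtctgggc
*Igfbp5*, chr1:72874816-72875115, minus strand: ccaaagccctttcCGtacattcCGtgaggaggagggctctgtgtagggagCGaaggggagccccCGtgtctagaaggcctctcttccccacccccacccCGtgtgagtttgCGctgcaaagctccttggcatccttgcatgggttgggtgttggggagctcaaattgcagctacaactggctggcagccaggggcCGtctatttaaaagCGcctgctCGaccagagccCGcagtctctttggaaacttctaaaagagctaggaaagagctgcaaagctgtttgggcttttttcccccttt
The *Col3a1* window has 0 CpG, as have 5.43% of the 32851 promoters in the table, and it contains the letters TATAAA, which 13.6% of all promoters hold on either strand. The *Igfbp2* window has 18 CpG and a GC content of 67%, and the *Igfbp5* window has 10 CpG and a GC content of 56.3%, against a median of 7 CpG over all promoters. A second *Igfbp2* start in the table, whose window is chr1:72825137-72825436, has 14 CpG.

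The analysed stretch of chromosome 1 had 5750234 pairs in wild-type cells and 4398699 in knockout cells, and is called the held part below. There was 1 library per group, so no test was made, and all intervals are 95% intervals that cover counting error only. The labels mention replicates, which the lists do not separate. Pairs between chromosome 1 and the Y chromosome numbered 4413 for wild-type cells, 0.191% of trans pairs (0.186% to 0.197%), and 679 for knockout cells, 0.0385% (0.0356% to 0.0415%). The libraries thus differ in Y content, and the part of this in any result below was not tested. Pairs per member window ran from 31259 (*Col5a2*) to 60205 (*Igfbp5*) in wild-type cells and from 24446 to 46239 for the same genes in knockout cells. Of the contacts at least 2 Mb from the window, a smaller share lay over 30 Mb away in knockout cells at each member, such as 40.1% and 30.5% for *Sulf1* and 43.4% and 37.9% for *Igfbp5*. This held for all 508 coding genes with such contacts, whose median was 39.2% in wild-type cells and 32.9% in knockout cells.

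The compartment value of a window is its mean on the leading eigenvector of the contact map at 250 kb, in SD units, with positive values in A. *Igfbp2* and *Igfbp5* lay deepest in A among the members. *Igfbp2* had a value of 1.36 in wild-type cells and 1.35 in knockout cells, and *Igfbp5* had 1.35 and 1.33. *Sulf1*, at 0.76 and 0.79, and *Fn1*, at 0.62 and 0.63, were in A in both libraries with values near the middle of all genes. The collagen genes were in B in both libraries. *Col3a1* had −0.83 and −0.99, and *Col5a2* −0.75 and −0.93. By their wild-type value the collagen genes ranked 39 and 44 from the lowest of 509 genes, *Fn1* 213, *Sulf1* 245, *Igfbp5* 368 and *Igfbp2* 375. Thus 4 of 6 members were in A in each library, against 395 of 509 coding genes in wild-type cells and 397 in knockout cells.

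**Figure D1:**
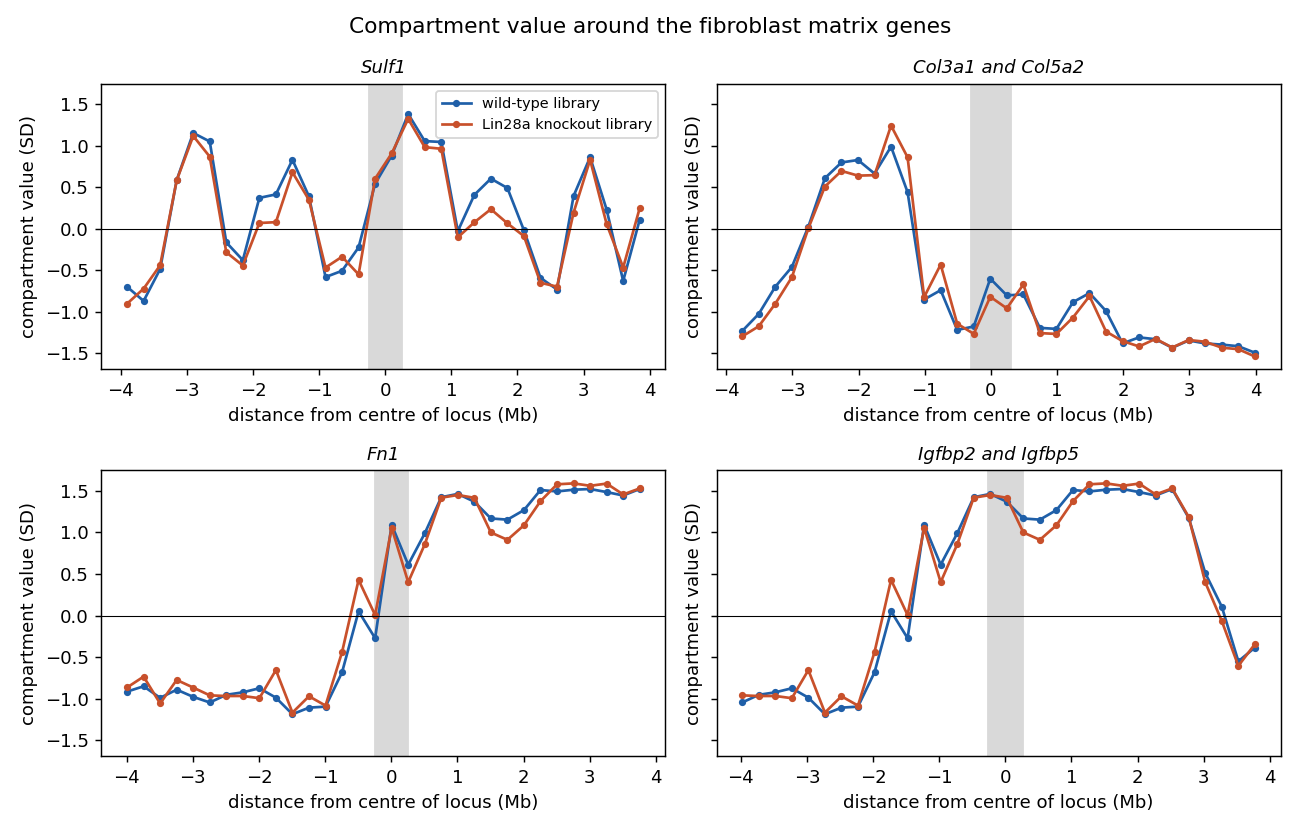
Compartment value (SD units, vertical axis) in 250 kb bins against distance from the centre of each locus (Mb, horizontal axis) in the wild-type and *Lin28a* knockout libraries, with the member windows shaded. The tracks run close together, with the collagen locus in B, the *Igfbp* locus in A, *Fn1* next to a change from B to A, and lower knockout values in the shaded collagen window.

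The collagen locus had a lower compartment value in knockout cells, by less than 0.2 SD, and the other 3 loci did not differ beyond counting error. How many of all coding genes had an interval that excludes 0 was not counted, so the interval alone does not set the collagen locus apart from other genes. The intervals use 1 SE taken over all coding genes. It was not measured for each window, and the number of pairs per window was lowest at the collagen locus. The difference, knockout minus wild-type, was −0.16 SD for *Col3a1* (−0.27 to −0.06) and −0.18 SD for *Col5a2* (−0.28 to −0.08). For *Sulf1* it was 0.04 SD (−0.07 to 0.14), for *Fn1* 0.00 SD (−0.10 to 0.11), for *Igfbp2* −0.01 SD (−0.11 to 0.09) and for *Igfbp5* −0.02 SD (−0.12 to 0.08). Maps made from the odd- and the even-numbered pairs of each library gave *Col5a2* −0.69 and −0.69 in wild-type cells against −0.92 and −0.81 in knockout cells. For *Col3a1* they gave −0.79 and −0.77 against −0.98 and −0.86. The collagen genes were the 2 members for which both knockout values were below both wild-type values, as they were for 24.8% of all coding genes. For 0 members were both knockout values above both wild-type values, against 41.3% of coding genes. The difference was over 0.2 SD for 0 members and under −0.2 SD for 0 members, against 5.3% of coding genes in each direction.

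The collagen differences kept their sign under each of the 7 alternatives, 1 of which replaced the eigenvector. It used a log2 ratio of contacts with gene-dense bins, as defined below, and with bins without coding genes. The interval for *Col3a1* included 0 under 3 of them, with −0.08 SD at 100 kb bins, −0.10 SD at a mapping quality of 30 or more and −0.09 SD with a 1 Mb window, and that for *Col5a2* under 1, with −0.09 SD in the 1 Mb window. These intervals use the SE of the main setting, so they do not measure the counting error of each alternative. The median difference over the 6 members was −0.01 SD, and over all coding genes 0.02 SD. The mean over the 4 loci was −0.04 SD. Across the held part, the wild-type and knockout tracks had a Pearson correlation of 0.988 over 250 kb bins, which are neighbours on 1 chromosome and not independent.

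The surroundings of the loci differed in kind. The *Fn1* window sat on a slope from B to A: the window centred 1 Mb to the left, toward lower coordinates, had −1.002 and −0.90, and the one 1 Mb to the right had 1.43 and 1.43. The window centred 500 kb to the left of *Fn1* had −0.22 in wild-type cells and 0.10 in knockout cells, a higher value by 0.32 SD, while *Fn1* itself was level. The one 500 kb to the right had 0.99 and 0.87, a lower value by 0.12 SD. *Sulf1* stood at the left side of an A stretch, with −0.31 and −0.39 at 500 kb to the left and 1.20 and 1.13 at 500 kb to the right. The collagen locus lay inside a B stretch, with −1.1 and −1.01 at 500 kb to the left and −0.90 and −0.89 at 500 kb to the right. The windows centred 1 Mb away had −0.52 and −0.33 on the left and −1.12 and −1.21 on the right. The knockout value was thus higher by 0.19 SD on the left and lower by 0.09 SD on the right. At 500 kb it was higher by 0.08 SD on the left and by 0.01 SD on the right. The *Igfbp* locus was in A on both sides, with 1.30 and 1.26 at 500 kb to the left. At 500 kb to the right it had 1.18 and 0.97, a lower value in knockout cells by 0.21 SD. At 1 Mb the knockout value was lower by 0.14 SD on the left and by 0.10 SD on the right. Counting error was not measured for these adjoining windows, and how many other windows differ as much was not counted.

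A second measure does not use the map's eigenvector. It is the share of far cis contacts, with a partner on the held part at least 2 Mb from the window, that fell on gene-dense bins, which are the 116 of 351 bins of 250 kb (33.0%) with 2 or more coding gene starts. *Fn1* had 45.4% in wild-type cells, of 12834 contacts, and 46.3% in knockout cells, of 10053. *Igfbp2* had 45.1% of 11857 and 46.0% of 9090, and *Igfbp5* 44.8% of 11839 and 45.8% of 9117. *Sulf1* had 42.5% of 11180 and 41.9% of 8893. These 4 genes stood above the share over all 500 kb stretches of the held part, which was 36.9% in both libraries. Over all coding genes the median was 42.9% in wild-type cells and 43.6% in knockout cells, and *Sulf1* was below it in both. *Col5a2* had 35.0% of 8867 in wild-type cells and 32.2% of 7317 in knockout cells, and *Col3a1* 33.3% of 9096 and 31.5% of 7435, so the collagen genes stood below it.

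**Figure D2:**
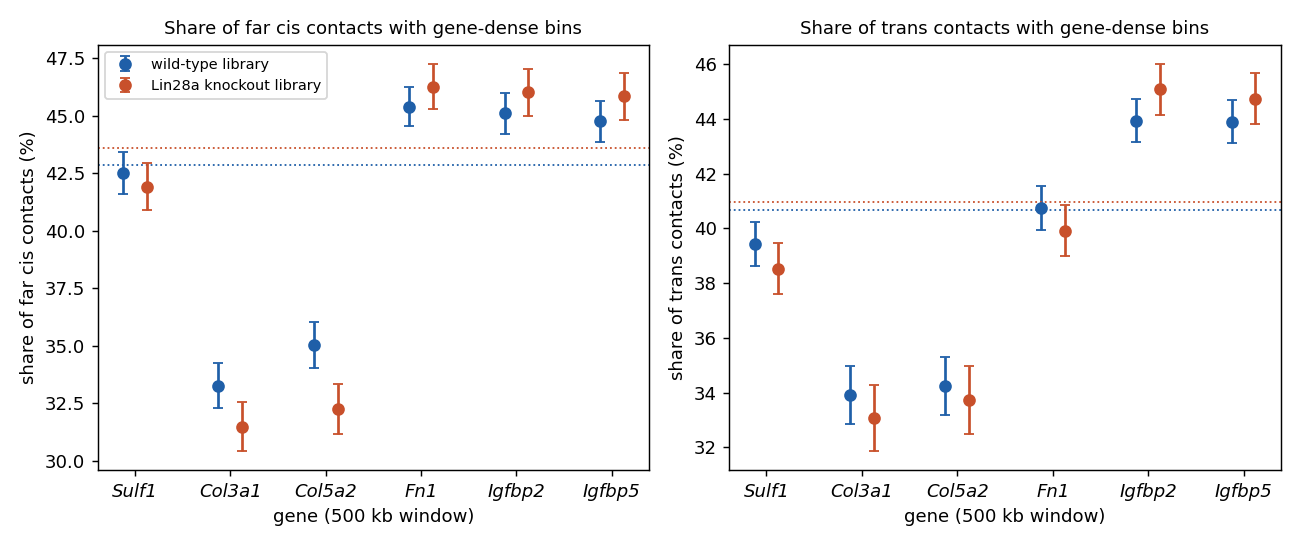
Share (%) of far cis contacts (left) and of trans contacts (right) of each 500 kb member window that fell on gene-dense bins, in the wild-type and knockout libraries, with exact binomial 95% intervals. Dotted lines are the medians over all coding genes of the held part in each library. The collagen genes lie lowest in both panels, and their knockout values lie below the wild-type values.

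The odds of a far contact with a gene-dense bin were lower in knockout cells at the collagen locus. The odds ratio, knockout over wild-type, was 0.883 for *Col5a2* (0.826 to 0.942) and 0.922 for *Col3a1* (0.863 to 0.984), which ranked 3 and 24 from the lowest of the 508 genes with contacts. It was 0.976 for *Sulf1* (0.923 to 1.033), 1.036 for *Fn1* (0.983 to 1.091), 1.038 for *Igfbp2* (0.982 to 1.096) and 1.045 for *Igfbp5* (0.989 to 1.104), with intervals that include 1. Thus the interval lay below 1 for 2 members, which share 1 locus, and for 8.27% of all coding genes. It lay above 1 for 0 members and for 38.4% of coding genes. Most coding genes were in A in wild-type cells (395 of 509), and the collagen genes were not compared with genes in B alone. An odds ratio under 1/1.1 was found for 1 member, *Col5a2*, and for 2.76% of genes, and one over 1.1 for 0 members and for 15.7% of genes. That of *Col5a2* was not under 1/1.1 with partners on the whole of chromosome 1 (0.914). Nor was it with every bin that holds a coding gene as gene-dense (0.932), or in a 1 Mb (0.942) or 250 kb window (0.915). Of 9 alternatives, 3 gave *Col3a1* an interval that includes 1 and 2 did so for *Col5a2*, and all 9 kept an odds ratio under 1 for both genes. Taking only the top 20% of bins as gene-dense moved *Col3a1* most, to 0.963. Both *Igfbp* genes had an interval above 1 under 2 of the 9, with 1.060 (1.019 to 1.103) for *Igfbp2* and 1.054 (1.013 to 1.096) for *Igfbp5* in a 1 Mb window, and 1.070 (1.009 to 1.133) and 1.078 (1.018 to 1.143) at a mapping quality of 30 or more. Under these settings 39.5% and 35.6% of all coding genes had an interval above 1.

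Summed over the 4 loci, 41.8% of far cis contacts in wild-type cells (41.4% to 42.3%) and 41.5% in knockout cells (41.0% to 42.04%) fell on gene-dense bins. The odds ratio of 0.988 (0.961 to 1.015) did not exceed counting error. The median odds ratio over the 6 members was 1.006, and over all coding genes 1.028. Over all 500 kb stretches it was 0.999 (0.995 to 1.004). The members had no common direction, with 3 above 1 and 3 below.

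The collagen locus had an odds ratio below 1 in each class of distance, with an interval that included 1 in the nearest class. For partners at 2 to 10 Mb the odds ratio was 0.918 (0.835 to 1.009), at 10 to 30 Mb 0.901 (0.823 to 0.986) and at 30 Mb or more 0.842 (0.730 to 0.971), where the share was 29.7% in wild-type cells and 26.2% in knockout cells. Among all coding genes, the interval lay below 1 for 4.92%, 6.89% and 2.17% in these classes, from near to far, and above 1 for 13.4%, 17.7% and 28.0%. *Fn1* had an odds ratio above 1 at 30 Mb or more, of 1.143 (1.024 to 1.276), with 43.5% and 46.8%, and values of 1.008 and 1.003 at the shorter distances. The *Igfbp* locus had 0.995 (0.906 to 1.093), 1.065 (0.979 to 1.158) and 1.110 (0.996 to 1.237), from near to far. *Sulf1* had 1.026 (0.942 to 1.118) at 2 to 10 Mb, 0.875 (0.785 to 0.974) at 10 to 30 Mb and 1.056 (0.950 to 1.174) beyond.

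Contacts with other chromosomes give a view that does not depend on distance along chromosome 1. Here gene-dense bins were those of 1 Mb with 10 or more coding genes, 31.9% of bins. The order of the loci was the same as on chromosome 1, except that *Fn1* stood lower than both *Igfbp* genes. *Igfbp2* had 43.9% in wild-type cells and 45.1% in knockout cells, *Igfbp5* 43.9% and 44.7%, *Fn1* 40.7% and 39.9%, *Sulf1* 39.4% and 38.5%, *Col5a2* 34.2% and 33.7%, and *Col3a1* 33.9% and 33.1%. Values of *Col3a1* and *Col5a2*, and of *Igfbp2* and *Igfbp5*, did not differ beyond their intervals, and their windows share contacts.

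The trans shares of the members in their 500 kb windows did not differ between the libraries beyond counting error, but 1 Mb windows gave calls in both directions. Odds ratios were 0.963 for *Sulf1* (0.915 to 1.014), 0.963 for *Col3a1* (0.896 to 1.034), 0.977 for *Col5a2* (0.909 to 1.051), 0.966 for *Fn1* (0.918 to 1.017), 1.047 for *Igfbp2* (0.997 to 1.1) and 1.035 for *Igfbp5* (0.986 to 1.087). Thus 4 members were below 1 and 2 above, with an interval above 1 for 0 members, against 31.7% of coding genes, and below 1 for 0 members, against 6.89%. An odds ratio over 1.1 was found for 0 members and 3.35% of genes, and one under 1/1.1 for 0 members and 1.57% of genes. With a 1 Mb window the interval lay above 1 for *Igfbp2*, at 1.049 (1.013 to 1.086), and *Igfbp5*, at 1.044 (1.008 to 1.081), and below 1 for *Sulf1*, at 0.961 (0.927 to 0.997), and *Fn1*, at 0.951 (0.916 to 0.987), and with that window it lay above 1 for 43.4% and below 1 for 12% of all coding genes. The *Igfbp2* interval also lay above 1 with the larger sequencing run alone, at 1.054 (1.002 to 1.109), and with tied counts included among gene-dense bins, at 1.055 (1.005 to 1.107), as did those of 32.5% and 34.1% of all coding genes. Over the 4 loci the share was 40.2% (39.8% to 40.6%) and 39.8% (39.4% to 40.3%), an odds ratio of 0.987 (0.961 to 1.013). The median odds ratio was 0.972 over the members and 1.021 over all coding genes.

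Insulation describes how many contacts cross a position, as log2 of the mean contact in a 500 kb square over the chromosome mean, with low values at domain boundaries. It was read in the 100 kb bin of each gene's start. *Fn1* had 0.29 in wild-type cells and 0.22 in knockout cells, *Col3a1* 0.23 and 0.20, *Sulf1* 0.08 and 0.01, *Col5a2* 0.04 and −0.08, and the bin shared by *Igfbp2* and *Igfbp5* −0.14 and −0.13. By 1 SE taken over all coding genes, the difference exceeded counting error for *Col5a2*, at −0.12 (−0.21 to −0.03). With 50 kb bins it was −0.07, and the interval with the SE of the main setting included 0 (−0.16 to 0.02). In 100 kb bins the difference was −0.08 for *Fn1* (−0.17 to 0.02), −0.07 for *Sulf1* (−0.16 to 0.03), −0.03 for *Col3a1* (−0.12 to 0.06) and 0.00 for the *Igfbp* bin (−0.09 to 0.09). A difference under −0.1 was found for 1 member, *Col5a2*, and for 6.92% of coding genes, and one over 0.1 for 0 members and for 13% of genes. In maps from odd- and even-numbered pairs, both knockout values were below both wild-type values for *Sulf1*, *Col5a2* and *Fn1*, 3 members, as for 18.8% of all genes, and above them for 0 members, against 34.4% of genes. The median difference was −0.05 over the members and 0.02 over all genes. The mean over the 4 loci was −0.05 (−0.10 to −0.01), and with a 300 kb square and the SE of the main setting −0.04 (−0.09 to 0.01).

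**Figure D3:**
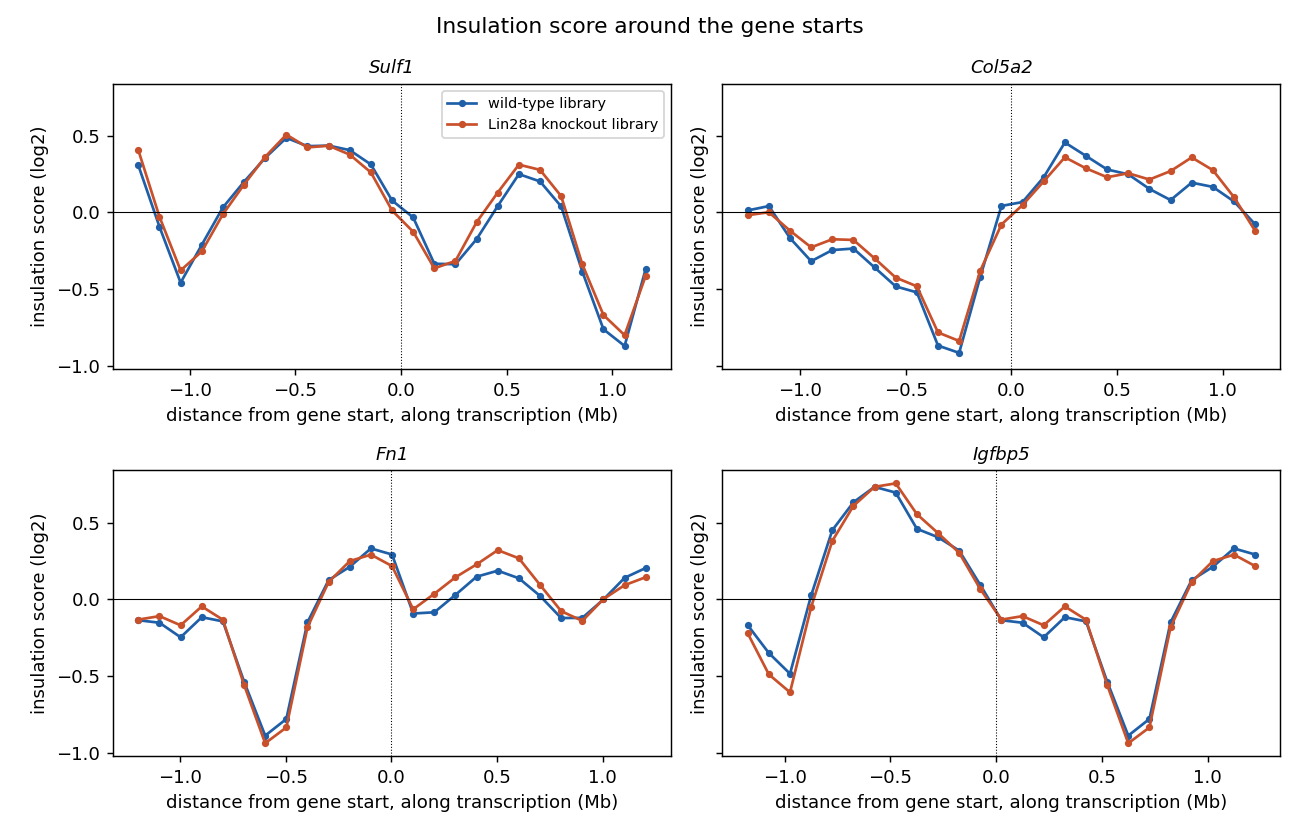
Insulation score (log2, vertical axis) in 100 kb bins against distance from the gene's start along the direction of transcription (Mb, horizontal axis) for *Sulf1*, *Col5a2*, *Fn1* and *Igfbp5* in the wild-type and knockout libraries. Minima are boundaries, and they fall at nearly the same positions in both libraries, such as the one near *Col5a2* with −0.92 and −0.84.

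The lowest insulation score within 700 kb lay away from the gene start at each member. Near the collagen genes it was −0.92 in wild-type cells and −0.84 in knockout cells, 200 kb upstream of the *Col5a2* start and 400 kb from that of *Col3a1*, so that both genes lay on 1 side of it. *Fn1* and the *Igfbp* genes had the same lowest bin, 600 kb from the starts on either side, with −0.89 and −0.94, so this boundary lay between both loci. Near *Sulf1* it was −0.34 at 300 kb in wild-type cells and −0.36 at 200 kb in knockout cells.

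Near contacts of *Fn1* were turned toward lower coordinates in knockout cells. Of its contacts between 20 kb and 2 Mb from the window, 49.6% (48.8% to 50.4%) of 13894 lay toward higher coordinates in wild-type cells and 45.2% (44.3% to 46.1%) of 12113 in knockout cells, an odds ratio of 0.838 (0.799 to 0.880). That ranked 4 from the lowest of 508 coding genes. *Fn1* is transcribed toward lower coordinates, and on that side lies the window whose compartment value was higher by 0.32 SD. Both values come from the same libraries, and a link between them or with transcription was not tested. *Igfbp2* had 63.5% and 61.9%, with an odds ratio of 0.933 (0.888 to 0.980), and *Igfbp5* 63.4% and 62.0%, with 0.939 (0.894 to 0.986). *Sulf1* had 36.3% and 37.2%, with 1.041 (0.989 to 1.096), *Col3a1* 41.3% and 40.1%, with 0.950 (0.888 to 1.017), and *Col5a2* 35.3% and 35.2%, with 0.995 (0.927 to 1.069). The interval lay below 1 for 3 members, at 2 loci, and for 17.1% of all coding genes, and above 1 for 0 members and for 13.8% of genes. This measure was added after values had been seen. For *Fn1* the interval stayed below 1 under the 4 alternatives tried, with odds ratios from 0.810 to 0.849. For *Igfbp2* and *Igfbp5* it included 1 with partners up to 1 Mb away, with a 1 Mb window and at a mapping quality of 30 or more. For *Sulf1* it lay above 1 with partners up to 1 Mb away, at 1.070 (1.010 to 1.134), and at a mapping quality of 30 or more, at 1.072 (1.013 to 1.135), and for *Col5a2* below 1 with a 1 Mb window, at 0.947 (0.898 to 0.998). Of all coding genes, 15% and 13.6% had an interval above 1 under the settings named for *Sulf1*, and 18.9% one below 1 under that for *Col5a2*.

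Contacts inside the member windows were frequent at *Igfbp2*, *Igfbp5* and *Fn1* and few at the collagen genes. They were set against the mean of the held part at equal distance, without correction for the number of pairs per window, which was lowest at the collagen locus. *Igfbp5* stood at 1.44 times the mean in wild-type cells and 1.45 in knockout cells, *Igfbp2* at 1.42 and 1.44, *Fn1* at 1.41 and 1.43, and *Sulf1* at 1.18 and 1.15. *Col3a1* stood at 0.652 and 0.637, and *Col5a2* at 0.648 and 0.621, ranks 27 and 26 from the lowest of all coding genes in both libraries. The ratio of knockout to wild-type ran from 0.958 (0.899 to 1.020, *Col5a2*) to 1.015 (0.973 to 1.059, *Fn1*). All 6 intervals included 1, so they lay above 1 for 0 members, against 13% of coding genes, and below 1 for 0 members, against 16.3%.

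The loci were also set against each other. These counts, too, were not corrected for the number of pairs per window, which was lowest at the collagen locus. *Sulf1* and *Fn1*, both in A and 58.8 Mb apart, had 46 contacts in wild-type cells, 2.07 times the number at that distance (1.52 to 2.76), and 29 in knockout cells, 2.23 times (1.50 to 3.21). *Sulf1* and the *Igfbp* locus had 57 and 24, or 2.35 (1.78 to 3.04) and 1.72 (1.103 to 2.56) times. The collagen locus and the *Igfbp* locus, in opposite compartments, had 35 and 37, or 0.488 (0.340 to 0.679) and 0.637 (0.449 to 0.879) times. *Fn1* and the *Igfbp* locus, neighbours at 1.23 Mb, had 765 and 625, or 0.811 (0.754 to 0.870) and 0.776 (0.716 to 0.839) times. The collagen locus with *Sulf1* stood at 0.792 (0.573 to 1.067) and 1.138 (0.836 to 1.513), and with *Fn1* at 0.991 (0.774 to 1.251) and 0.797 (0.584 to 1.063). For all 6 locus pairs the interval of the ratio between the libraries included 1. The widest-apart values, a ratio of 1.44 for *Sulf1* with the collagen locus (0.930 to 2.23) and of 0.734 for *Sulf1* with the *Igfbp* locus (0.435 to 1.20), rested on under 60 contacts each.

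Among 214 bins of 250 kb more than 5 Mb from every member, the contact profile most like that of *Sulf1*, *Fn1* and the collagen locus was sought in the sum of both libraries, by Pearson correlation over 318 bins that share their libraries. For *Fn1* and for *Sulf1* it was the same bin, 55000001 to 55250000, with r of 0.695 and 0.624. That bin holds *Sf3b1*, *Coq10b*, *Hspd1*, *Hspe1*, *Mob4*, *Rftn2* and *Mars2*, among them genes of splicing and of mitochondrial chaperones. For the collagen locus it was 30500001 to 30750000, with r of 0.520, which holds 0 coding genes. Median correlations over the candidate bins were 0.121 for *Sulf1*, 0.194 for the collagen locus and 0.137 for *Fn1*.

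Other genes expressed in fibroblasts were examined in the same way. On the held part these were *Serpine2*, *Nrp2*, *Tns1*, *Fhl2*, *Il1r1* and *Dst*, of which 5 of 6 were in A in both libraries. Their cis odds ratios had a median of 0.979, from 0.949 for *Fhl2*, a gene of a LIM domain protein, to 1.138 for *Dst*, the gene of a cytoskeletal linker, with 2 above 1 and 4 below. The interval lay above 1 for 2 of them and below 1 for 1, against 38.4% and 8.27% of all coding genes. In trans the median was 1.009, with 4 above 1 and 2 below, and the interval lay above 1 for 2 of them and below 1 for 0, against 31.7% and 6.89% of all coding genes. The compartment difference ran from −0.16 SD for *Nrp2*, a semaphorin and growth factor co-receptor, to 0.16 SD for *Dst*, with a median of −0.02 SD, 1 value above 0 and 5 below, against 315 above and 194 below among all coding genes. In the maps of odd- and even-numbered pairs, both knockout values were below both wild-type values for 2 genes and above them for 1, against 24.8% and 41.3% of all coding genes. Contacts inside the windows were higher for 1 gene and lower for 5, against 251 and 257 of all coding genes.

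**Figure D4:**
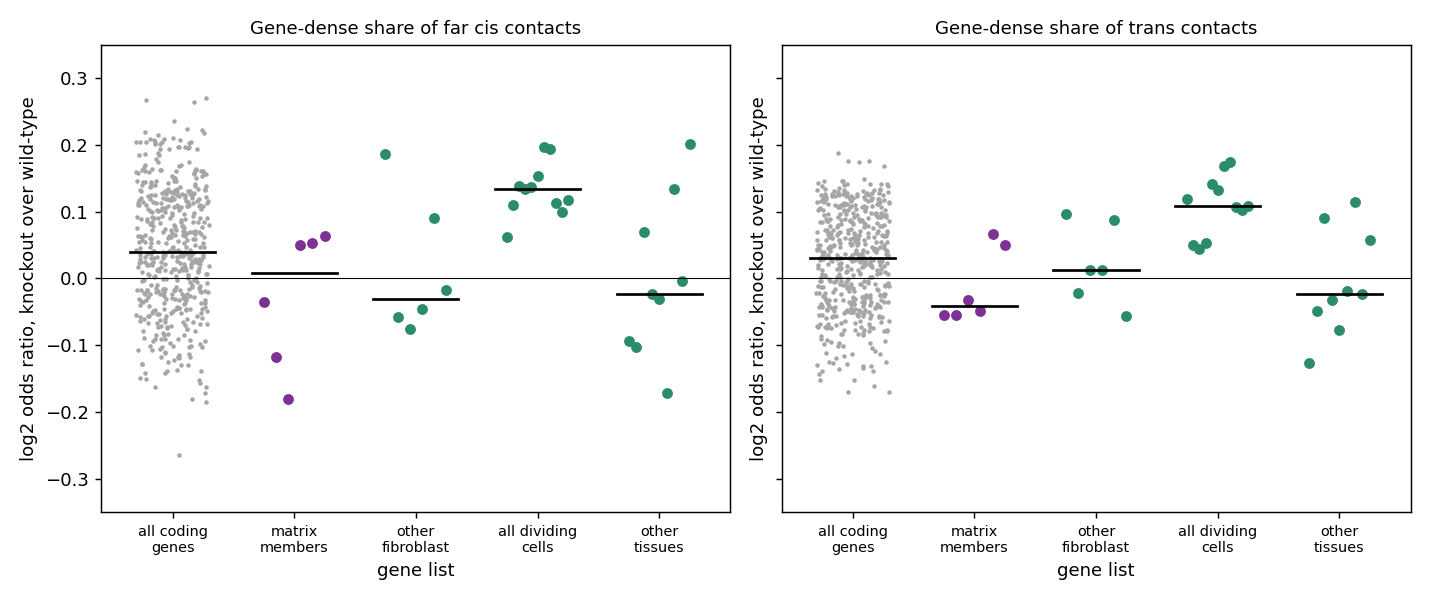
Odds ratios of contacts with gene-dense bins (knockout over wild-type, log2 scale) for far cis contacts (left) and trans contacts (right), 1 point per gene window, for all coding genes of the held part, the matrix genes and 3 other lists, with bars at the medians. The matrix genes spread on both sides of 0, whereas all 11 genes used by all dividing cells lie above 0 in both panels. All 11 were in A in both libraries, and the lists were not matched for compartment.

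Genes used by all dividing cells lay on 1 side. All 11 had cis odds ratios above 1, from 1.045 for *Rpl31* to 1.146 for *Ndufs1*, with a median of 1.097 and 10 intervals above 1. Among all coding genes, 336 of 508 were above 1, and 38.4% had an interval above 1. In trans all 11 were above 1, from 1.031 for *Hspd1* to 1.129 for *Eef1b2*, with a median of 1.078 and 8 intervals above 1, against 321 of 508 and 31.7% of all coding genes. Some of these windows overlap, and that of *Rpl37a* overlaps the windows of both *Igfbp* genes. *Rpl37a* had a cis odds ratio of 1.072 (1.015 to 1.132), against 1.038 and 1.045 for *Igfbp2* and *Igfbp5*, whose intervals include it. Lineage genes of other tissues, 9 in all, had a cis median of 0.984, from 0.888 for *Erbb4* to 1.150 for *Chrng*, with 3 above 1 and 6 below. Their cis interval lay above 1 for 2 genes and below 1 for 2, against 38.4% and 8.27% of all coding genes. Their trans median was 0.984, from 0.916 for *Rp1* to 1.082 for *Des*, and the interval lay above 1 for 2 genes and below 1 for 1, against 31.7% and 6.89%. *Prdm14*, a regulator of naive pluripotency that ES cells express, was in A at 1.17 SD and 1.13 SD, with odds ratios of 1.034 in cis and 0.974 in trans. No difference between the lists was tested.

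Fibroblast genes on other chromosomes were seen through their contacts with gene-dense 250 kb bins of the held part, in 1 Mb windows with 432 to 1749 pairs. The 19 genes had a median share of 39.3% in wild-type cells and 40.6% in knockout cells, and a median odds ratio of 1.049, with 13 above 1 and 6 below. They include *Col1a2* on chromosome 6, whose numbers of pairs were 1312 and 1749, and without it the median was 1.046. For all 20322 coding genes off chromosome 1 the median odds ratio was 1.042, and 65.2% were above 1. *Ccn2*, the gene of a matricellular growth factor, was highest at 1.236 (1.042 to 1.465), with 40.5% and 45.6%, and *Ccn1*, of the same family, lowest at 0.859 (0.680 to 1.085), with 39.3% and 35.7%. *Col1a1* and *Col1a2*, the genes of both type I collagen chains, had 1.039 (0.885 to 1.221) and 1.055 (0.910 to 1.223), and *Thy1*, a surface marker of fibroblasts, 1.050 (0.895 to 1.231). The interval lay above 1 for 1 of 19 genes and below 1 for 0, against 8.12% and 1.22% of all coding genes.

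**Figure D5:**
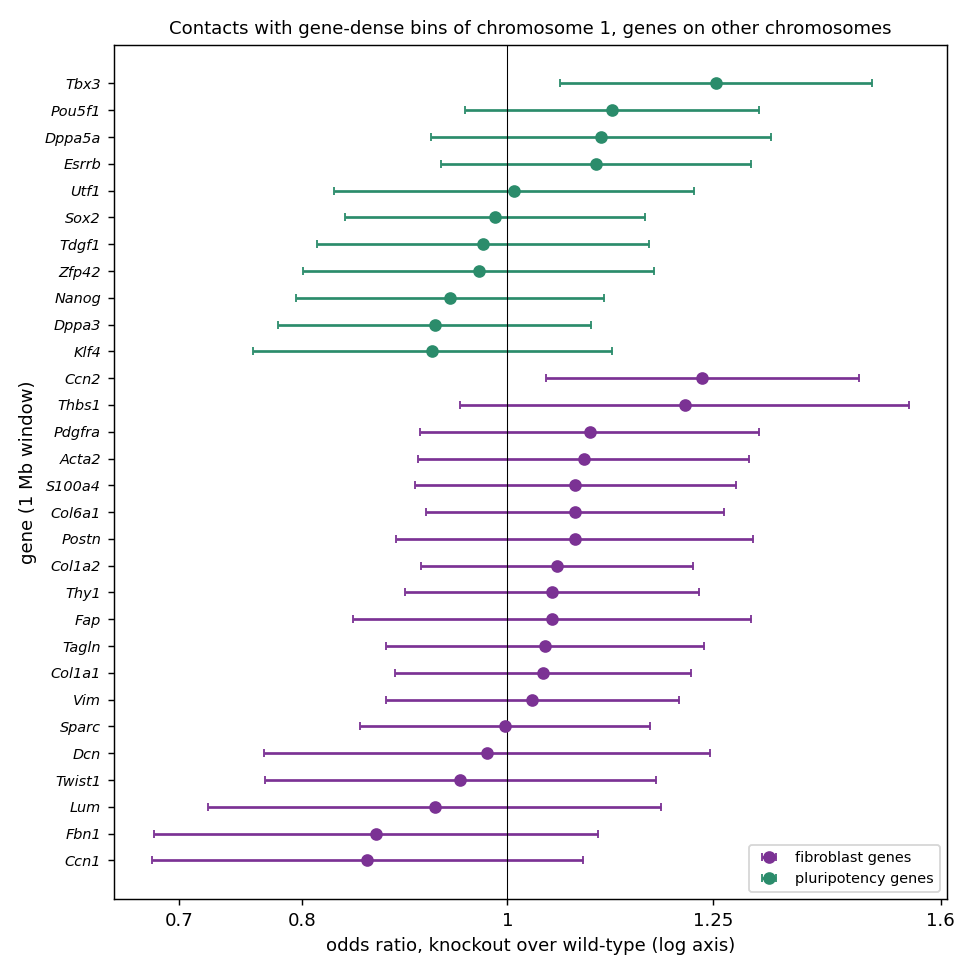
Odds ratio (knockout over wild-type, log axis) of contacts with gene-dense bins of chromosome 1 for 19 fibroblast genes and 11 pluripotency genes on other chromosomes, with 95% intervals. The intervals of *Ccn2* and *Tbx3* lie above 1, and those of the other genes cross 1.

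The 11 pluripotency genes had median shares of 43.4% and 43.4% and a median odds ratio of 0.987, with 5 above 1 and 6 below. Without *Nanog*, *Dppa3* and *Zfp42*, which lie on chromosomes 6 and 8, the 8 others had a median of 1.054, with 5 above 1 and 3 below, so the list had no stable direction. *Tbx3*, a transcription factor of naive ES cells, was highest at 1.254 (1.058 to 1.486), and *Klf4*, another such factor, lowest at 0.922 (0.759 to 1.120). Intervals of single genes were wide, so a difference of the size seen at the collagen locus was not detectable for 1 gene in trans.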

How the data were processed

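Hi-C pairs were analysed from 1 wild-type and 1 *Lin28a* knockout ES library. The labels' processing notes name CASAVA 1.8, Bowtie2, HiC-Pro and mm10, and the authors had removed ends of low mapping quality. The deposited lists give 1 line per valid pair, with the position of each end as another number and a mapping quality score from 11 to 42, and no normalization. The lists used here were partial, with 5793079 and 11430967 lines. The part held in both was chromosome 1 from 3 to 90.75 Mb as first end, in which every pair of a member window is complete (3445388 and 2634001 cis pairs, 2304846 and 1764698 trans pairs).

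For maps, cis pairs at least 20 kb apart were used, with the wild-type library thinned to 1973740 pairs (seed 1). Maps were balanced by iterative correction, bins with a total under 20% of the median were dropped, and contacts were divided by the mean at equal distance. Counting error of compartment and insulation values came from maps of odd- and even-numbered pairs, as an SE over all coding genes (0.0521 SD and 0.0464 log2). The same SE was used for the alternatives and was not measured again for them. Shares have exact binomial intervals, counts exact Poisson intervals and odds ratios log-normal intervals. Trans shares of the windows on chromosome 1 count partners on autosomes only, so X, Y and mitochondrial partners were left out. Partners on chromosomes 6 and 8, whose numbers were unequal in earlier results, were also left out. Genes on chromosomes 6 and 8 stayed in the lists of genes on other chromosomes. Python 3.11.15, numpy 2.4.6, scipy 1.17.1, pandas 2.3.3 and matplotlib 3.10.9 were used, and the steps were tested on simulated data.

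The members, lists and measures were chosen with earlier results of these data known. All members are named, and of each other list the genes with the highest and the lowest difference. Adjoining windows, distance classes, locus pairs and the direction of near contacts were added to the planned measures. *Rpl37a*, *Col1a1*, *Col1a2*, *Thy1*, *Nanog*, *Dppa3* and *Zfp42* were named after their values were seen. The definition of gene-dense bins was narrowed after first values had been seen, because ties at 1 gene took in most bins; the wider definition is among the alternatives. The bin most like the *Igfbp* locus is not reported here.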

Additional observations from a re-analysis of the deposited data

How the results depend on the processing

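The mean compartment difference over the 4 loci kept its sign under 7 alternatives. It ran from −0.05 to −0.02 SD, and was −0.01 log2 where a log2 ratio replaced the eigenvector. The cis odds ratio stayed under 1 under 9 (0.984 to 0.998), and the trans odds ratio under 6 (0.974 to 0.994). The insulation difference stayed below 0 under 5 (−0.05 to −0.04) and the ratio of contacts inside the windows under 1 under 4 (0.991 to 0.999). None of these moved by more than the counting error of its main setting, which for the log2 ratio is in another unit. The interval of the mean insulation difference, −0.05 (−0.10 to −0.01), included 0 with a 300 kb square. That of the mean compartment difference excluded 0 with the larger sequencing run alone, at −0.05 SD (−0.10 to −0.00204). The intervals of these alternatives use the SE of the main setting and do not measure their own counting error, so neither change can be called. Alternatives changed the bin size, the thinning, the mapping quality, the sequencing run, the window, the insulation square, the distance of partners, the part of chromosome 1 or the chromosomes that partners came from, and the definition of gene-dense bins. The far cis share was also standardised for distance, and the eigenvector was replaced by a log2 ratio. The main definition of gene-dense bins was narrowed after first values had been seen, and the wider definitions gave 0.988 in cis and 0.989 in trans. All alternatives for the direction of near contacts were chosen after seeing the data. Of the single genes, 3 values moved beyond counting error: *Sulf1* to −0.07 SD with a 1 Mb window, and *Igfbp2* and *Igfbp5* to trans odds ratios of 0.992 and 0.979 with the top 20% of bins as gene-dense. The median odds ratio of the pluripotency genes on other chromosomes turned from 0.987 to 1.054 without chromosomes 6 and 8, an alternative also chosen after seeing the data. The cause was not tested. No paired analysis was possible because each group had 1 library, so no replicate could be left out either. Depth limits single windows, whose intervals, such as 0.983 to 1.091 for the cis odds ratio of *Fn1*, set the smallest difference that could be seen.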
